A study of Caenorhabditis elegans with 3 samples.

Results

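Of the 1914 reproducible binding sites of RNA polymerase III in the nematode *Caenorhabditis elegans*, 477 (24.9%) had their summit in open sequence between genes, and these orphan peaks are described here. They were chosen by position alone. The summit had to lie more than 200 bp from every annotated non-coding RNA gene and tRNA pseudogene and more than 500 bp from every transcription start site (TSS) of a protein-coding gene. It also had to lie outside the bodies of protein-coding genes, by the RefSeq annotation of WBcel235, which is the sequence of build ce11. Of the other reproducible peaks, 395 had their summit in a gene body and 146 at a promoter, both away from small RNA genes, and 896 within 200 bp of a small RNA gene or tRNA pseudogene.

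The assay was ChIP-seq, which sequences the DNA that is pulled down with a protein, and the protein was RPC-1, the largest subunit of this polymerase (Pol III). Whole young adult hermaphrodites were used. All animals were of strain YL517 and carried RPC-1 with a C-terminal tag of green fluorescent protein (GFP) and FLAG, which was pulled down with an antibody against GFP. There were 3 biological replicates of this 1 group, with chromatin broken by sonication, and no second condition, so comparisons were made between classes of peaks. The values are those of 1 tagged line and of all tissues together, and the labels give the age of the animals as unknown.

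Pol III makes tRNAs, 5S rRNA and other short RNAs. At tRNA genes the factor TFIIIC binds an A box and, further downstream, a B box, which both lie inside the transcribed part, and TFIIIB then brings in the polymerase upstream. Pol III ends its transcripts in a run of T in the non-template strand. In yeasts and mammals TFIIIC or Pol III also sits at sites without an annotated gene, and many animal genomes hold short repeats that descend from tRNA genes.

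The peaks between genes carried a B box, which is 1 part of the internal promoter of a tRNA gene, far more often than other sequence that met the same rule. A B box with at most 1 mismatch lay within 100 bp of the summit in 296 of 477 peaks between genes (62.1%, exact 95% interval 57.5% to 66.4%), against 66.6% of all reproducible peaks and 2.10% of all windows of the same size whose centre met the same rule. These windows tiled the genome end to end, and 133409 of 498866 (26.7%) were eligible. A B box without a mismatch lay in 147 peaks between genes (30.8%), against 45.5% of all reproducible peaks and 0.343% of the eligible windows. It lay in 32.7% of gene-body peaks, 38.4% of promoter peaks and 60.2% of peaks at small RNA genes. The share with at most 1 mismatch was thus close to that of all reproducible peaks. It did not set the peaks between genes apart from gene-body or promoter peaks. The share without a mismatch was lower than that of all reproducible peaks.

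Of the 9 strongest peaks, 7 are printed 5′ to 3′ along the B box. The first block of capitals, where there is one, is the A box without a mismatch nearest upstream, and the last block of capitals is the B box. Positions are on ce11 and the sign gives the strand.
chrX:4453266-4453365 (+), between mltn-13 and F02E8.4: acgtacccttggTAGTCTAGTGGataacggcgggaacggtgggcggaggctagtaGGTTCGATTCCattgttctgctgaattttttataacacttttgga
chrV:3163294-3163393 (+), between C36C5.12 and C36C5.14: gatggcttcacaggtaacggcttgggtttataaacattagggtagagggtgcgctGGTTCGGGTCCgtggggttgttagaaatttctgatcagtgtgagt
chrV:5592071-5592170 (+), between CD4.11 and vps-37: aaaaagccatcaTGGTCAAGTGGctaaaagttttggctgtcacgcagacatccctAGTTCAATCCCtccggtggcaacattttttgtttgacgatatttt
chrV:5667441-5667540 (-), between C14C11.7 and pqn-13: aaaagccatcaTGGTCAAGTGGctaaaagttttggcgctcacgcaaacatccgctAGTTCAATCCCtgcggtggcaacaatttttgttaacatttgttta
chrII:5353790-5353889 (-), between F09E5.7 and srg-69: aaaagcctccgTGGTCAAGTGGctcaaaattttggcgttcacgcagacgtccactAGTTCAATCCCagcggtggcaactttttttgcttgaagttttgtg
chrIII:2030887-2030986 (-), between ckr-2 and dpy-1: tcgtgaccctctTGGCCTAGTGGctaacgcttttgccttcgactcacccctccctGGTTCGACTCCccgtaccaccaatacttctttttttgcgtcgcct
chrIII:2031300-2031399 (-), between ckr-2 and dpy-1: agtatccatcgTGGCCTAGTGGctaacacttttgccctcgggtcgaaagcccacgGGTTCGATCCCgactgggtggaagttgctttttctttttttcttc

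In 6 of these 7 sequences an A box ended 32 or 33 bases before the B box and a run of 4 or more T began 12 to 18 bases after it, which is the arrangement of a tRNA gene. The exception lay between C36C5.12 and C36C5.14, which had neither. Of the 2 peaks not printed, the one between T13G4.7 and C46H3.1 had a B box of 1 mismatch and also had neither. The other, between C14E2.6 and T26C11.4, had a best B box of 2 mismatches, so neither was searched there. Of the flanking genes, vps-37 encodes a subunit of the ESCRT-I sorting complex and srg-69 is a chemoreceptor gene. Like sequences were held by the peaks between CD4.11 and vps-37, between C14C11.7 and pqn-13 and between F09E5.7 and srg-69. They lie on 2 chromosomes and formed a family of their own. Each of these 3 matched the annotated tRNA pseudogene K10B2.t1 by blastn, but lay more than 200 bp from any annotated small RNA gene.

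Over all peaks between genes with a B box, 224 of 296 (75.7%, interval 70.4% to 80.4%) had an A box without a mismatch in the 60 bp upstream, on the same strand. The same was true of 78.0% of gene-body peaks and 81.9% of promoter peaks with a B box, of 93.9% of the 459 peaks at tRNA genes that had a B box and of 18.5% of the 2803 eligible windows that had one. A median of 33 bases lay between the boxes in the peaks between genes, and also in the peaks at tRNA genes and in the windows. A run of at least 4 T followed the B box within 60 bp in 210 of the 296 peaks between genes (71.0%), against 98.0% at tRNA genes and 64.2% in the eligible windows that had a B box. Such a run followed in 68.7% of gene-body peaks and 69.15% of promoter peaks with a B box. The A box and the T run were searched after the sequences had been seen.

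The B box also had a preferred place. Read along its own strand, it was centred downstream of the summit in 240 of the 296 peaks between genes (81.1%), at a median of 42 bp (quartiles 16 and 54), and 51.7% were at 30 to 60 bp. At tRNA genes the median was 43 bp and 59.7% were at 30 to 60 bp. In gene-body peaks the median was 41 bp and 50.97% were at 30 to 60 bp, and in promoter peaks 37 bp and 57.45%. The place was thus shared with these classes and did not set the peaks between genes apart. In the eligible windows the median was −3 bp and 15.7% were at 30 to 60 bp. The windows were tiled without regard to sequence, so a preferred place could not arise in them. The peaks between genes were spread more widely around this place, with 22.6% of B boxes at 40 to 50 bp, against 43.6% at tRNA genes.

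**Figure D1:**
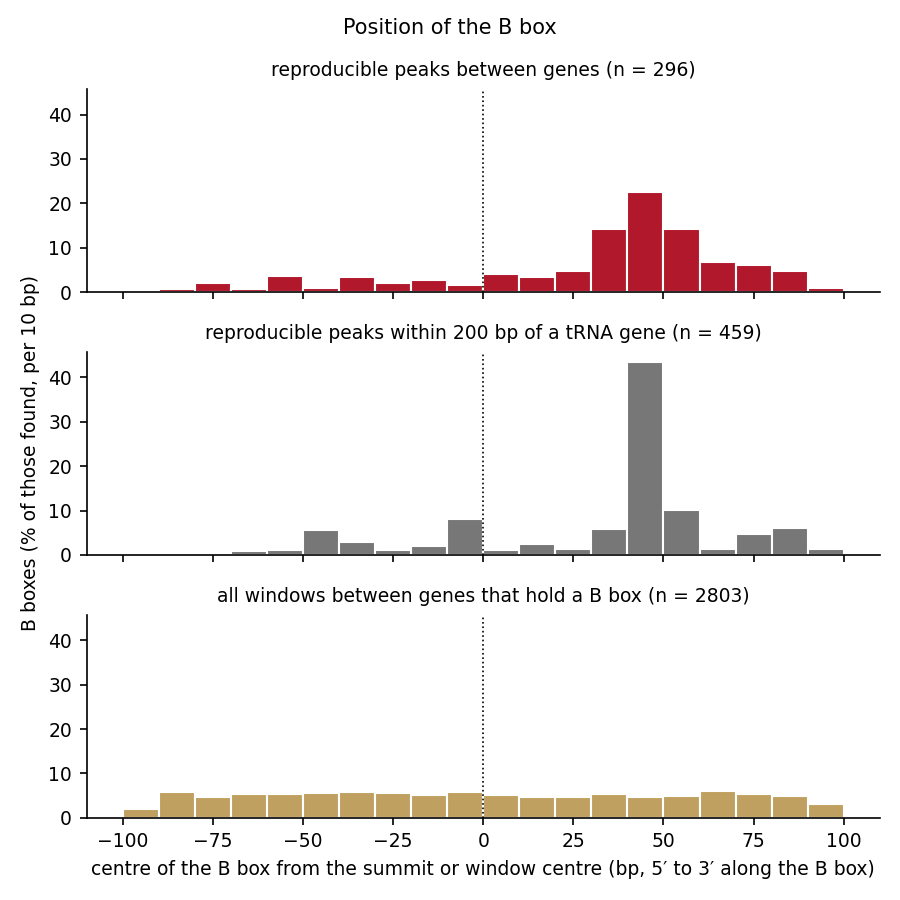
Distance from the summit (or the window centre) to the centre of the B box in bp, counted 5′ to 3′ along the B box, as a percentage of the B boxes found in bins of 10 bp, for peaks between genes, peaks at tRNA genes and eligible windows. The highest bin is that of 40 to 50 bp for the peaks between genes (22.6%) and for the peaks at tRNA genes (43.6%), and the windows have 4.75% there.

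About 1 in 2 peaks between genes resembled a tRNA pseudogene, close to the share of all reproducible peaks. The latter include the peaks at tRNA genes and tRNA pseudogenes themselves. A blastn match (E at most 0.001) to an annotated tRNA pseudogene was found in 239 of 477 (50.1%, interval 45.5% to 54.7%), against 50.8% of all reproducible peaks and 0.454% of the eligible windows. They matched 79 different pseudogenes best, F53B1.t1 in 46 peaks. A match to an annotated tRNA gene was found in 86 peaks between genes (18.0%, interval 14.7% to 21.8%), against 41.4% of all reproducible peaks and 0.176% of the eligible windows. A B box was present in 82 of these 86 and in 212 of the 239 (88.7%). The remaining 236 peaks (49.5%) matched neither a tRNA gene nor a tRNA pseudogene, and 84 of them (35.6%) still had a B box.

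The matches to tRNA genes varied in length and identity. Identity ranged from 71.2% to 100% with a median of 82.5%, over 18 to 73 aligned bases with a median of 54. The match of the peak between mihp-2 and cyp-42A1 was 100% identical over only 18 bases. That of the peak between Y113G7B.15 and sld-5 was 71.2% identical over 73 bases, the length of its tRNA gene C08E8.t3. The best match was to one of 21 tRNA genes, most often Y51A2B.t1 (isoleucine) in 15 peaks, T13B5.t2 (threonine) in 14, W05B2.t1 (arginine) in 12, C08E8.t3 in 10 and Y59A8B.t3 (glycine) in 9. Below, the aligned part of a peak stands above that of its tRNA gene for 2 of the closest matches, with the B box in capitals.
chrV:18462114-18462178 (+), between ZK228.3 and ZK228.4: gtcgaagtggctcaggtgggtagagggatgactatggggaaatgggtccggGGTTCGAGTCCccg
Y51A2B.t1, bases 1 to 65: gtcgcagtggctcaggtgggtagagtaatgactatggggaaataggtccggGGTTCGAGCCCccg
chrII:1107885-1107942 (+), between col-40 and lips-11: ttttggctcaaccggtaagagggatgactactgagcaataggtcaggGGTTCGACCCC
T13B5.t2, bases 4 to 61: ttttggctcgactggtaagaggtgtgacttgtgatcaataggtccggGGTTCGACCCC

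The peak between ZK228.3 and ZK228.4 was 92.3% identical to the tRNA gene over 65 bases and had a signal of 251, and the one between col-40, a collagen gene, and lips-11 was 86.2% identical over 58 bases and had a signal of 174. Both peaks lay on the chromosome of their tRNA gene. Matches to other small RNA genes were fewer. There were 36 to a snoRNA gene (7.55%, against 8.62% of all reproducible peaks and 0.874% of the eligible windows), with Y77E11A.21 in 14. Another 27 were to a microRNA gene (5.66%, against 4.23% of all reproducible peaks and 1.99% of the windows), with mir-4937 in 23. Of the genes annotated only as ncRNA, just rpr-1, mrpr-1 and the srpr genes were searched. Among these, srpr-3 was matched by 2 peaks (0.419%), against 0.784% of all reproducible peaks with a match to any of them. None matched an snRNA, rRNA or scRNA gene, against 1.46%, 0.261% and 0.052% of all reproducible peaks. A count of 0 in 477 allows a share of up to 0.629% (3 counts of the total).

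Under the limits first set, most peaks between genes shared part of their sequence with another of them. When their sequences within 100 bp of the summit were compared (blastn, E at most 1e-05 over at least 80 bp), 360 (75.5%) joined 35 families, 13 of them with 5 or more members. The 5 largest had 93, 77, 31, 26 and 24 members, and members of a family share sequence and are not independent sites. Stricter limits on both E (at most 1e-10) and length (at least 120 bp) left 231 of the 477 members in families. This was no longer most of them, and they formed 48 families, the largest of 50. The families did not stop at the class border, since 307 of 395 gene-body peaks (77.7%) and 89 of 146 promoter peaks (61.0%) resembled a peak between genes, against 112 of 896 peaks at small RNA genes (12.5%).

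The strongest member of 4 of the 5 largest families is printed to show how they differ, in order of family size and with capitals as above.
chrII:769456-769555 (+), 93 members, between C08G5.7 and C08G5.6: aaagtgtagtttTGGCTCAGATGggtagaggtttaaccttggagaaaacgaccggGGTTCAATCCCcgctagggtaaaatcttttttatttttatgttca
chrX:1675293-1675392 (-), 77 members, between tbx-31 and fbxa-170: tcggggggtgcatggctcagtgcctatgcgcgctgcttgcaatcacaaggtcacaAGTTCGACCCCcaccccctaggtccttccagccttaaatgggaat
chrIII:1354713-1354812 (+), 31 members, between Y82E9BL.3 and Y82E9BL.1: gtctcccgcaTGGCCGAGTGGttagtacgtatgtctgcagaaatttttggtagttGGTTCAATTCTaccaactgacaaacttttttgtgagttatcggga
chrX:1972884-1972983 (-), 24 members, between str-79 and F52D2.5: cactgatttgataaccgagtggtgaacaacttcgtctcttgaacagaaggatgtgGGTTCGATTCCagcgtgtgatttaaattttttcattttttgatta

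The 93-member family was the most tRNA-like. All 93 members matched a tRNA pseudogene and 64 a tRNA gene, 90 had a B box (78 of them without a mismatch) and 75 had an A box upstream of it. Their signal ranged from 83.0 to 1944 with a median of 289. They lay on all 5 autosomes and none on X, where only 1 of the family's 517 copies in the genome lies. In the 77-member family, 46 members were on X, as were 202 of its 780 genome copies (25.9%). A reproducible summit lay within 100 bp of 102 of these 202 copies on X, against 156 of all 780 (20%). A B box lay in 41 of the 77, always with a mismatch, and 50 matched a tRNA pseudogene, with signals from 80.6 to 2744 around a median of 276.

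The 31-member family had a B box in 24, a tRNA pseudogene match in 28 and the highest median signal of the 5, at 469. The 26-member family had a B box in 25 and the lowest median signal, at 142, and 14 of its members (53.8%) were found in all 3 replicates. The 24-member family had a B box in 13, an A box in 2 and a match to a tRNA pseudogene in 3.

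In the 5 largest families, genome copies with a B box coincided with a peak more often than copies without one. In the 77-member family, 126 of 191 copies with a B box of 1 mismatch had a reproducible summit within 100 bp (66.0%, interval 58.8% to 72.6%), against 27 of 581 copies with none (4.65%, interval 3.09% to 6.69%). In the 31-member family the shares were 41 of 65 (63.1%) and 6 of 44 (13.6%), and in the 24-member family 31 of 79 (39.2%) and 6 of 40 (15.0%). The 93-member family had a summit at 224 of 443 copies with a B box without a mismatch (50.6%) and at 4 of 20 without (20%). In the 26-member family these counts were 69 of 277 (24.9%) and 1 of 7 (14.3%), and their exact intervals (19.9% to 30.4% and 0.361% to 57.9%) overlapped widely. The order was the same in 6 of the other 8 families of 5 or more, and 2 had it the other way. In the 7-member family led by the peak between C07F11.2 and tol-1, 0 of 3 copies with a B box and 20 of 79 without one (25.3%) had a summit. In the 6-member family led by the peak between ins-17 and cpg-1, these counts were 0 of 3 and 7 of 181 (3.87%). These copies were gathered from the sequence of peaks, so the shares are a description and were not tested, and 0.639% of all eligible windows had a reproducible summit within 100 bp of the window.

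**Figure D2:**
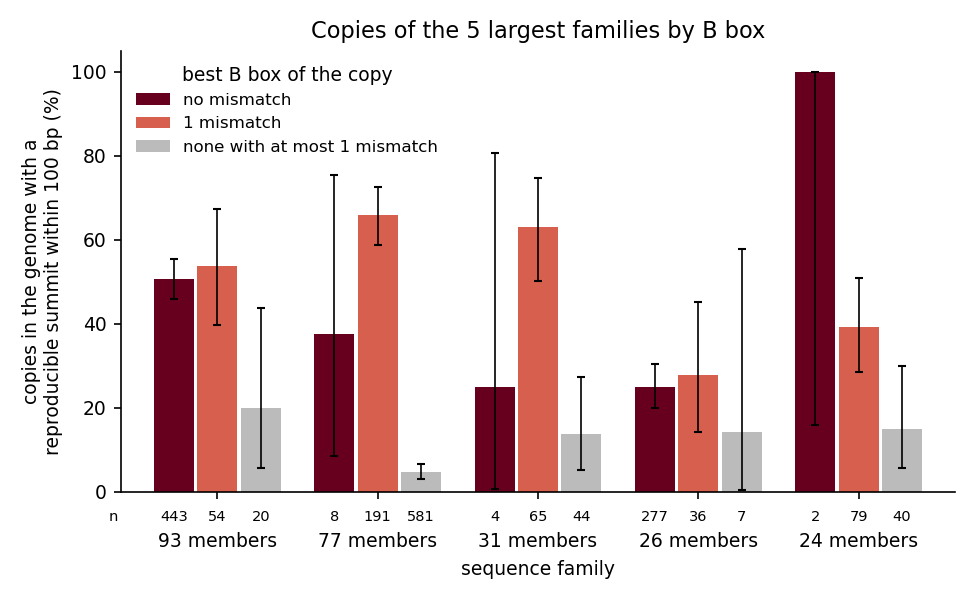
Percentage of the genome copies of each of the 5 largest families that had a reproducible summit within 100 bp, by the best B box of the copy, with exact 95% intervals and the number of copies under each bar. In the 77-member family the bar for 1 mismatch stands at 66.0% and that for no B box at 4.65%, and in the 26-member family the bars stand at 24.9%, 27.8% and 14.3%.

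The smaller families included some without a tRNA-like promoter. The 7-member family with its strongest peak between C07F11.2 and tol-1, a Toll-like receptor gene (signal 274), had no B box in any member. Nor had the 6-member family with its strongest peak between ins-17, an insulin-like peptide gene, and cpg-1 (signal 632). The family of 5 with its strongest peak between F16G10.14 and F16G10.1 (signal 366) had 1. Other families had a B box but no match to a tRNA gene or tRNA pseudogene. In the 8-member family led by the peak between spat-3 and pqn-65 (signal 3542) all 8 had both boxes. The 7-member family led by the peak between H40L08.2 and H40L08.1 (signal 836) was entirely on X and had a B box in 5. A family with a B box in 5 of 6 was led by the peak between ftn-1, a ferritin gene, and F19F10.3 (signal 1838). Another was led by the peak between the Hox gene egl-5 and egl-45 (signal 286, 4 of 6 with a B box). The family led by the peak between cya-1, a cyclin A gene, and ZK512.1 (signal 960, 3 of 8) completes the 13.

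The 117 peaks in no family had a B box in 55 (47.0%, interval 37.7% to 56.5%), against 241 of 360 in families (66.9%, interval 61.8% to 71.8%). Their median signal was 255, against 283 in families. Peaks in no family supplied 10 of the 20 strongest peaks between genes.

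The signal of the peaks between genes was modest in most and high in a few. The signal, as deposited, is a value of the peak caller that ranks peaks within this list only. It had a median of 277 (95% interval of the median 250.5 to 300.2), quartiles of 155 and 591, and a range from 77.1 to 5773. The median was 214 in gene bodies, 196 at promoters and 2261 at small RNA genes. When the whole list was cut by signal into 4 parts of equal size, 19, 129, 180 and 149 peaks between genes fell into these parts from strongest to weakest. The ranges of all classes overlapped, and only 3.98% of the peaks between genes reached the strongest part.

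**Figure D3:**
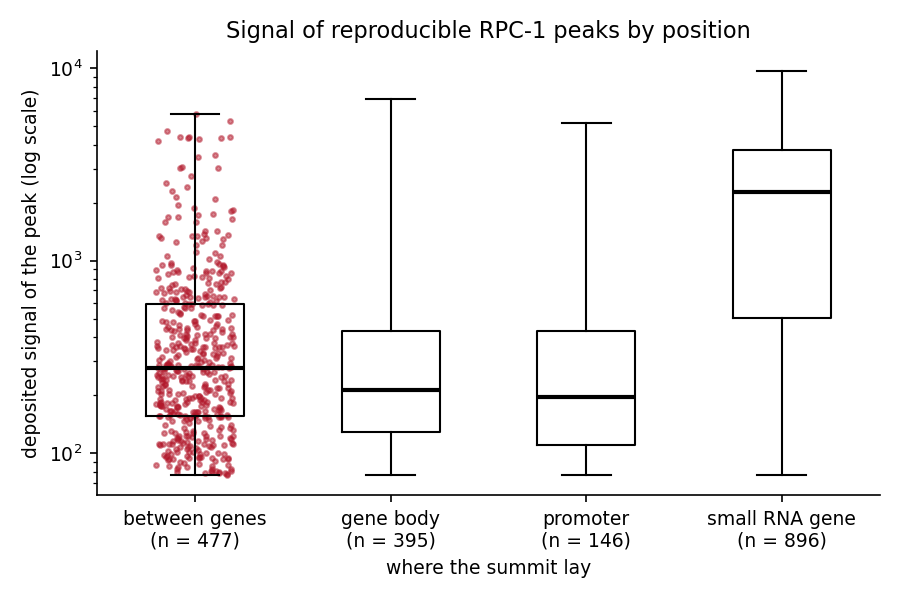
Deposited signal (log axis) of reproducible peaks by the position of the summit; boxes show quartiles and median, whiskers the full range, and points the single peaks between genes. The peaks between genes have a median of 277 and reach 5773, while peaks at small RNA genes have a median of 2261.

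The B box with at most 1 mismatch was more frequent in stronger peaks. It was found in 84.2% of the 19 peaks between genes in the strongest of the 4 parts, 69.0% in the second, 64.4% in the third and 50.3% in the weakest. A B box without a mismatch lay in 7 of 19, 42 of 129, 54 of 180 and 44 of 149 in the same order, and a tRNA gene matched 5.26%, 20.2%, 20.6% and 14.8%. The 296 with a B box had a median signal of 329, against 222 in the 181 without. Repeat bases did not follow this order, since none of the 19 strongest had a window at least 50% masked, against 44.3% in the weakest part.

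The strongest peak between genes, with a signal of 5773, had its summit at X:1837878 in the pseudogene T26C11.3, in the gap between C14E2.6 and T26C11.4, and its best B box had 2 mismatches. It ranked 44, 66 and 47 in the lists of replicates 1, 2 and 3, which held 24182, 24563 and 30000 peaks. The second, between mltn-13 and F02E8.4, had a signal of 5289 and ranked 46, 31 and 35. The peak between C36C5.12 and C36C5.14 followed with 4690.5 and ranks of 83, 41 and 34. All 3 were thus among the strongest 100 peaks of every replicate.

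The 3 like sequences that matched K10B2.t1 had close values. The peak between CD4.11 and vps-37 had a signal of 4399.7 and ranks of 65, 48 and 50. The one between C14C11.7 and pqn-13 had a signal of 4372 and ranks of 71, 64 and 75. The one between F09E5.7 and srg-69 had a signal of 4355 and ranks of 57, 84 and 69. The peak at X:1208116 between T13G4.7 and C46H3.1 reached 4396 and ranked 178, 174 and 225. Its B box, of 1 mismatch, lay 13 bp upstream of the summit. The pair of summits between ckr-2, a neuropeptide receptor gene, and dpy-1, a body shape gene, had signals of 4312 and 4295 on 1 shared interval of 1780 bp, and therefore 1 shared set of ranks (182, 292 and 176).

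The tenth strongest, between cdk-14 and zfr-1, had a signal of 4159, a B box without a mismatch and ranks of 103, 98 and 90. At the other end stood the peak between lin-14, a heterochronic gene, and spp-9 with a signal of 78.6, the one between unc-51, an autophagy kinase gene, and Y60A3A.23 with 77.8, and the one between Y37E3.17 and Y37E3.30 with 77.1. Of these 3, the peak beside unc-51 had a B box, without a mismatch.

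How many peaks between genes were found in every replicate depended on the limit set. A replicate's strongest 1914 peaks overlapped 87.8%, 84.9% and 87.2% of the peaks between genes in replicates 1, 2 and 3 (86.7% ± 1.54, SD, n = 3). All 3 replicates held 369 of 477 (77.4%, interval 73.3% to 81.0%), against 84.0% of all reproducible peaks. With 50% as many replicate peaks the share was 27.7%, with an overlap of at least 50% it was 47.4%, and with all replicate peaks it was 98.3%. Under the first limit a further 44 were held by 2 replicates, 45 by 1 and 19 by none. The share held by all 3 was 72.2% in gene bodies, 72.6% at promoters and 94.6% at small RNA genes. The reproducible list was made from the same replicates, so these shares describe it and do not test it.

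The median percentile rank of the peaks between genes in the replicate lists was 95.03, 95.01 and 95.98. It exceeded that of gene-body peaks by 0.571, 0.801 and 0.551 percentile points (mean 0.641 ± 0.139, SD, n = 3), higher in 3 of 3 replicates. Against promoter peaks the difference was 0.615, 0.903 and 0.385, also higher in 3 of 3. Against peaks at small RNA genes it was −3.20, −3.21 and −2.58, lower in 3 of 3. The smallest p an exact sign-flip test allows over 3 replicates is 0.25, so none of these differences could pass it.

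**Figure D4:**
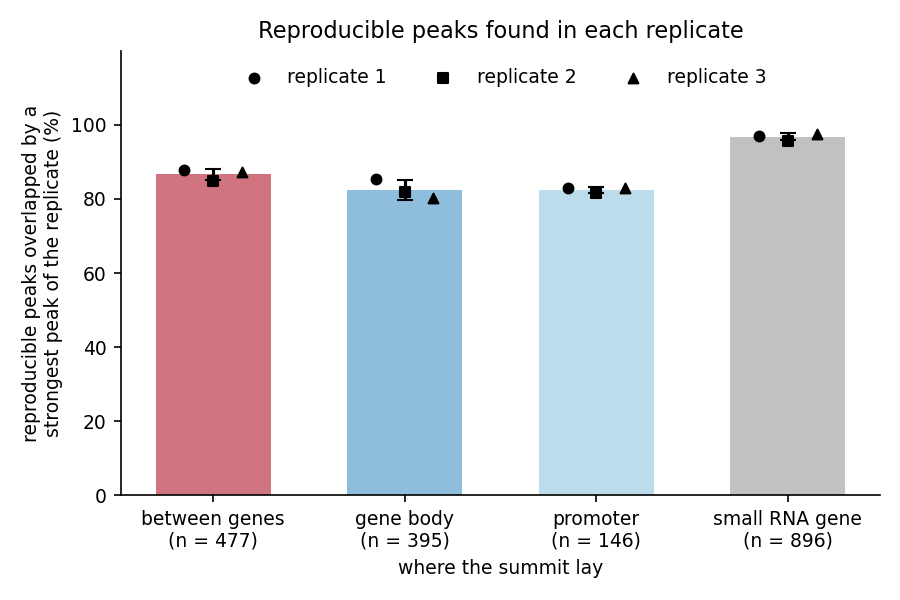
Percentage of reproducible peaks that overlapped a peak among the strongest 1914 in each replicate, by the position of the summit; bars show the mean over 3 replicates, error bars the SD and symbols the replicates. Peaks between genes average 86.7%, and peaks at small RNA genes are the highest in every replicate.

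The limit to the strongest peaks of a replicate makes strong peaks more likely to be found, and the counts by signal are given as a description. All 19 in the strongest part of the list were found in all 3 replicates, and 128 of 129 in the second, 155 of 180 in the third and 67 of 149 in the weakest. The median signal was 357 in the 369 peaks found in all 3 replicates, against 120 in the other 108. None of the 477 had the interval and summit of a peak in the replicate or pooled lists, so ranks were taken from overlapping peaks, and peaks between genes on 1 interval share them.

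The peaks between genes were sparse in the middle of the autosomes. The outer parts, taken as 33.3% of the length at either end, held 310 of the 359 autosomal peaks between genes (86.4%, interval 82.4% to 89.7%), against 80.03% of all reproducible autosomal peaks and 68.2% of the eligible autosomal windows. With the strongest peak of each interval, 280 of 327 peaks between genes (85.6%) were in the outer parts, against 252 of 290 gene-body peaks (86.9%; adjusted p = 0.868) and 109 of 120 promoter peaks (90.8%; adjusted p = 0.522, two-sided Fisher exact tests adjusted over the 10 class tests by the method of Benjamini and Hochberg). Neither difference passed.

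**Figure D5:**
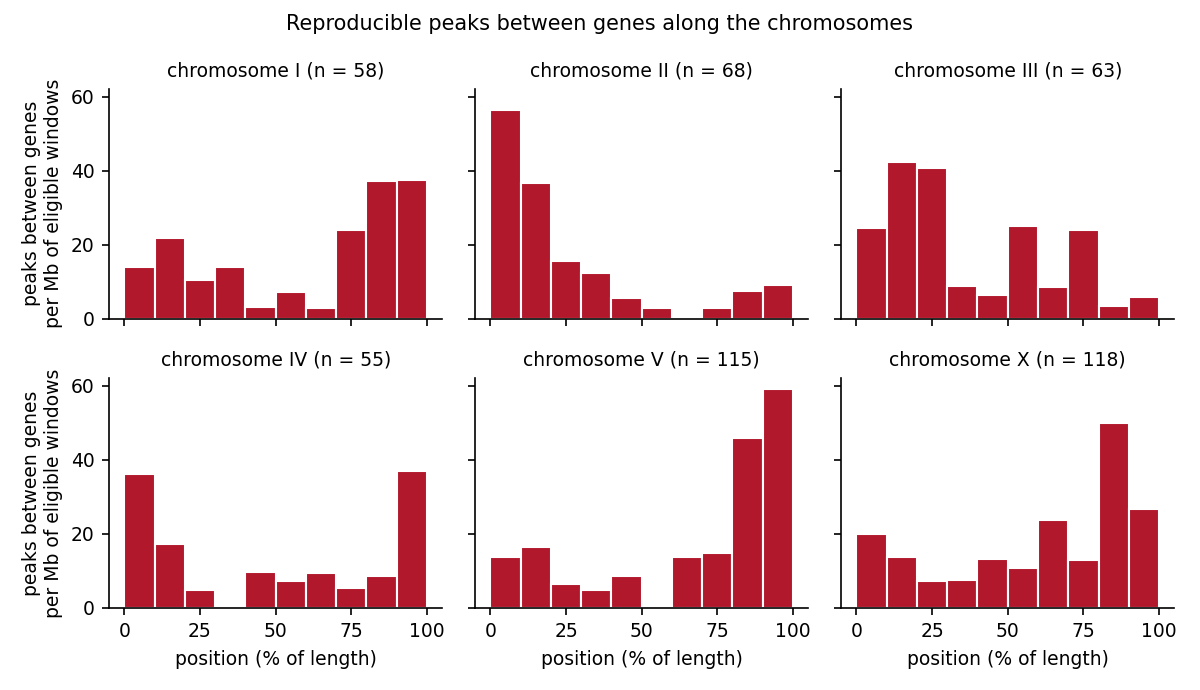
Peaks between genes per Mb of eligible windows in bins of 10% of each chromosome's length (horizontal axis in percent of length, vertical axis in peaks per Mb). The outer bins of most autosomes stand above the middle ones, unevenly between the 2 ends.

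Per Mb of eligible windows there were 17.7 peaks between genes on chromosome I, 16.4 on II, 19.5 on III, 13.9 on IV, 19.0 on V and 19.1 on X. X held 118 of the 477 (24.7%), against 28.6% of all reproducible peaks and 23.0% of the eligible windows. With the strongest peak of each interval, X held 23.6% of peaks between genes, against 20.5% of gene-body peaks (adjusted p = 0.585) and 13.0% of promoter peaks (adjusted p = 0.0456, two-sided Fisher exact). The second difference, of 10.55 percentage points, passed the threshold of 0.05. X held 23.0% of the windows between genes, 16.4% of the windows in gene bodies and 13.8% of the windows at promoters. Without replicate 1, 2 or 3 the difference from promoters was 12.01, 11.92 and 12.96 points, and did not pass (adjusted p of 0.108, 0.12 and 0.054, two-sided Fisher exact). Each of these was larger than 10.55 points, so the size did not fall. The difference passed with every peak counted (11.04 points, adjusted p = 0.0219, two-sided Fisher exact). It also passed with a TSS distance of 1000 bp (9.945 points, adjusted p = 0.0243, two-sided Fisher exact). With the strongest pooled peaks it passed too (17.72 points, adjusted p = 7.43e-06, two-sided Fisher exact).

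The peaks on X were less tRNA-like. A B box lay in 56 of 118 peaks between genes on X (47.5%, interval 38.2% to 56.9%), against 240 of 359 on autosomes (66.9%, interval 61.7% to 71.7%), and a tRNA gene match in 6 on X, against 80 on autosomes. The 2 largest families moved with this split, with 0 and 46 members on X and 93 and 31 on autosomes. All 3 replicates held 87.3% of the peaks on X and 74.1% of those on autosomes, with median signals of 331 on X and 260 on autosomes. These differences were not tested.

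Repeats were frequent among the peaks between genes. At least 50% of the bases within 100 bp of the summit were masked as repeat in the reference in 201 of 477 (42.1%, interval 37.7% to 46.7%), against 26.3% of all reproducible peaks and 32.9% of the eligible windows. By a second measure, 193 (40.5%) had at least 50% of these bases in words of 36 bases found more than once in the genome, against 26.3% of all reproducible peaks and 18.5% of the eligible windows. With the strongest peak of each interval, masked windows made up 42.3% of peaks between genes, against 45.8% of gene-body peaks (adjusted p = 0.585) and 29.7% of promoter peaks (adjusted p = 0.0456, two-sided Fisher exact).

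The difference from promoters was 12.6 percentage points, in a genome where windows between genes are masked more often (32.9%) than windows at promoters (20.9%). It was 5.86 points with a TSS distance of 1000 bp (adjusted p = 0.362, two-sided Fisher exact) and 6.25 with at least 20% repeat bases (adjusted p = 0.522), and passed with neither. Without replicate 1, 2 or 3 it was 10.9, 9.25 and 10.3 points and did not pass (adjusted p of 0.252, 0.359 and 0.279). With words of 36 bases it was 22.5 points (adjusted p = 1.42e-05, two-sided Fisher exact). How reads that fit several places were treated is not given in the sources used here, and its part in these peaks was not tested. The 181 peaks between genes with no repeated 36-base word at all had a median signal of 267, and 80.1% of them were found in all 3 replicates.

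The B box and the match to a tRNA gene gave no difference between classes that passed. With the strongest peak of each interval, a B box lay in 65.2% of peaks between genes, against 67.9% in gene bodies (adjusted p = 0.644) and 65.9% at promoters (adjusted p = 0.918, both two-sided Fisher exact). A tRNA gene match was found in 18.5% of peaks between genes, against 17.5% in gene bodies (adjusted p = 0.868) and 22.5% at promoters (adjusted p = 0.585, all two-sided Fisher exact). The p-values of all class tests treat peaks as independent, which members of a family are not. Nor are peaks on overlapping intervals, and the 428 intervals between genes merged into 371 regions.

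The peaks between genes lay in 308 gaps between neighbouring protein-coding genes and at 1 chromosome end, and 292 of the 477 shared their gap with another. This count includes neighbouring summits on the same or overlapping intervals, and 47 intervals held 2 of the peaks and 1 held 3. The flanking genes were divergent around 141 peaks (29.6%), in tandem around 254 (53.3%) and convergent around 81 (17.0%). Of the eligible windows, 31.7% were in divergent, 54.7% in tandem and 13.4% in convergent gaps. The median distance to the nearest TSS was 2116 bp, against 2217 bp for the windows, and to the nearest small RNA gene or tRNA pseudogene 3512 bp, against 4925 bp. The nearest small RNA gene was a tRNA gene for 20 peaks and a tRNA pseudogene for 65. More than 10000 bp separated 109 peaks from any of them.

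Some gaps held clusters. The gap of 26989 bp on chromosome IV between col-105, a collagen gene, and nhr-41, a nuclear hormone receptor gene, held 7 peaks over 18681 bp, all 7 with a B box and all found in every replicate, with signals from 180 to 653. On chromosome II, 6 peaks lay between nssp-13 and emc-1, a gene of the endoplasmic reticulum membrane complex (signals 158 to 1595, 4 with a B box), and 6 between snt-6, a synaptotagmin gene, and C08G5.7 (signals 206 to 1055, 5 with a B box). Another 5 lay between K02E7.1 and snf-3, a transporter gene, and 5 on chromosome III between Y53G8B.2 and nipa-1, all with a B box. All the peaks of these 5 gaps were found in all 3 replicates. The other 3 gaps with 5 peaks differed. Between ergi-2 and seb-3 on X, 2 peaks had a B box and 4 were found in all 3 replicates. Between dmd-3 and Y43F8C.11 on V, 2 had a B box and 2 were found in all 3, and between Y113G7B.11 and Y113G7B.15 on V, 5 had a B box and 4 were found in all 3.

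Some peaks lay close to the limits of the rule, on either side. Just inside the limit for small RNA genes, at 201 bp each, were peaks beside the piRNA gene 21ur-602 (signal 3079.7), the tRNA pseudogene Y43F8C.t8 (308) and the tRNA gene C05E7.t2 (209). Just outside were peaks 199 bp from the tRNA pseudogene Y53G8B.t5 (638), 199 bp from F40H6.8 (461) and 193 bp from the tRNA gene Y110A2AL.t1 (1507). Inside the limit for a TSS were peaks 504 bp from T21B10.3 (signal 94.3), 511 bp from srw-129 (126) and 513 bp from mks-1, a cilium gene (155). Outside it were peaks 499 bp from sms-3, a sphingomyelin synthase gene (2926), 491 bp from dbd-19 (324) and 484 bp from K12H4.5 (112).

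The label of orphan peaks held for the summits more than for the whole intervals. The interval reached a small RNA gene in 28 of the 477 and a protein-coding gene in 49, and 28 summits (5.87%) lay in an annotated pseudogene of another kind, against 10.5% of the eligible windows. Requiring the whole interval to meet the rule left 347. The 477 summits lay on 428 distinct intervals, of which 10 also held a summit at a small RNA gene, and the median width was 567 bp. Some of these intervals overlapped one another, and merged they made 371 regions. Read numbers are not part of the lists, so the depth of each sample is unknown and the intervals on shares cover the counting of peaks only.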

How the data were processed

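RPC-1 ChIP-seq peak lists of 3 replicates, 1 group, were analysed on build ce11. Per the deposited file lists, the authors called peaks per replicate and on pooled replicates against a control, not analysed here, and kept reproducible peaks by the irreproducible discovery rate (IDR); the sources used here do not name the peak caller, aligner or IDR threshold. The deposited signal is the caller's value and was used within a list only. The deposited −log10 q value was at 1 value throughout the reproducible list and was not used. Summit offsets were taken as deposited, and other positions count from 1. The reproducible list matched no peak of the lists named as its sources, so the rule was repeated on the pooled list.

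Position classes used RefSeq WBcel235 (19971 protein-coding genes, nuclear chromosomes). Windows reached 100 bp either side of a summit. Repeat bases were lower-case reference bases; 36-base words were counted on both strands. The B box of 11 positions (at most 1 mismatch) and A box were searched on both strands by consensus, and do not overlap each other. blastn (BLAST+ 2.17.0) used E at most 0.001 for small RNA genes. Distinct intervals, strongest peak each, entered two-sided Fisher exact tests (scipy 1.17.1), adjusted over 10; shares have exact (Clopper-Pearson) 95% intervals. Scans and tests were tested on simulated data. Alternatives varied distances, lists and limits and left out replicates. Members and lists were chosen with earlier results of these data known; the A box, T run, tRNA pseudogene match and B box of genome copies were added later. Named were the 10 strongest and 3 weakest members, the strongest of each family of 5 or more (1 is not reported here), the gaps with 5 or more members (the rule took up to 5, and 5 gaps tied at 5) and the 3 peaks nearest each limit; tRNA genes, pseudogenes and the printed tRNA matches were named by their number of matches or closeness, after values were seen.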

Additional observations from a re-analysis of the deposited data

How the results depend on the processing

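The number of members stayed between 347 and 515 under the other distances, intervals and lists, and was 148 in the strongest 50% of the list. The share found in all 3 replicates was 27.7% with the strongest replicate peaks cut to 50%, 98.3% with all replicate peaks, 47.4% with an overlap of at least 50% and 56.8% with a replicate summit within 100 bp; leaving out a replicate gave 79.9% to 80.9%. Families held 231 members under the stricter limit. Differences below are in percentage points, members minus the other class. Repeats against promoters no longer passed with a TSS distance of 1000 bp (5.86), the strongest pooled peaks (8.06), peaks found in every replicate (10.03) and at least 20% repeat bases (6.25), nor without a replicate (9.25 to 10.9). X against promoters no longer passed with peaks found in every replicate (12.5) or without a replicate (11.9 to 13.0). Differences that never passed changed sign: outer parts against gene bodies at 1000 bp (0.163) and without a replicate (−1.37 to 0.383), and against promoters with pooled peaks (2.01) and outer parts of 25% (1.23); repeats against gene bodies with pooled peaks (1.67), peaks in every replicate (0.492), 36-base words (1.78) and without a replicate (−0.0175 to 0.508); the B box against promoters with pooled peaks (9.90, adjusted p = 0.153, two-sided Fisher exact); the tRNA match against gene bodies with peaks in every replicate (−0.375) and without a replicate (−0.623 to 0.632), and against promoters at an E of 1e-06 (2.33). The causes were not tested. Read depth is unknown, so weak sites missed at this depth cannot be counted. No paired analysis was possible because all samples form 1 group.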
